A study of Arabidopsis thaliana with 6 samples.

Results

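The gibberellin receptor genes GID1A (AT3G05120), GID1B (AT3G63010) and GID1C (AT5G27320) were followed in germinating seeds of Arabidopsis thaliana. Members were found by their symbols in the platform's probe annotation, which gave 1 probe set for each, 3 genes of the 13286 loci that a probe set of this array names alone. The study set 3 samples of a double mutant, in which T-DNA interrupts both genes of peroxisomal malate dehydrogenase (At2g22780 and At5g09660), against 3 samples of a wild type labelled Col-0, which had segregated out of a heterozygous T-DNA parent. Both genotypes were whole seeds at growth stage 0.7, when hypocotyl and cotyledons leave the seed coat. After stratification on agar (2 days at 4 °C), all germinated at 22 °C in continuous light with 1% sucrose in the medium. Total RNA of each sample was hybridised to 1 ATH1 array, a 1-colour array that combines several short probes of a transcript into 1 signal. The labels do not say whether replicates came from separate seed batches, so p-values cover only the spread among these arrays, some of which may be technical. With 3 arrays per group, the number of arrays limits the precision of every value.

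Gibberellins are plant hormones that promote germination and cell elongation. GID1 proteins are their soluble receptors. A receptor that holds the hormone binds DELLA proteins, which repress growth, and an SCF ubiquitin ligase containing the F-box protein SLY1 then marks the DELLA for degradation. The receptors descend from carboxylesterase-like hydrolases but no longer act as enzymes. In Arabidopsis the 3 paralogs overlap in function, GID1A and GID1C being known for stem growth and germination, and GID1B for an ability to bind DELLA proteins with little or no hormone.

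None of the 3 receptor transcripts differed detectably between the double mutant and the wild-type segregant. GID1A was measured with probe set 259302_at. Its MAS5 signals, on a linear scale on which each array has a trimmed mean close to 100, were 95.3, 104 and 107 in the double mutant (replicates 1 to 3), against 96.6, 124 and 122 in the wild-type segregant. The groups overlapped, because wild-type replicate 1 lay at the level of the mutant arrays while the other wild-type arrays were above all of them. Means were 102 ± 5.96 in the mutant and 114 ± 15.1 in the wild type (SD, n = 3 each).

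GID1B was measured with probe set 251200_at. Its signals were 49.0, 51.0 and 46.5 in the double mutant, against 39.6, 57.3 and 53.1 in the wild-type segregant. The wild-type values enclosed all the mutant values, wild-type replicate 1 being the lowest of the 6 arrays and wild-type replicate 2 the highest. Means were 48.8 ± 2.24 in the mutant and 50.0 ± 9.24 in the wild type (SD, n = 3 each).

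GID1C was the dimmest of the probe sets and was measured with 246782_at. Its signals were 21.8, 21.5 and 25.9 in the double mutant, against 22.7, 22.6 and 24.3 in the wild-type segregant. Here the mutant values enclosed the wild-type values, and replicate 3 was the highest array of each genotype. Means were 23.1 ± 2.49 in the mutant and 23.2 ± 0.966 in the wild type (SD, n = 3 each). A probe set's brightness depends on its probes as well as on the transcript, so the different signals of the 3 genes give no order of their transcript levels. The RNA came from whole seeds, so fewer cells of a type and less transcript per cell cannot be told apart.

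**Figure D1:**
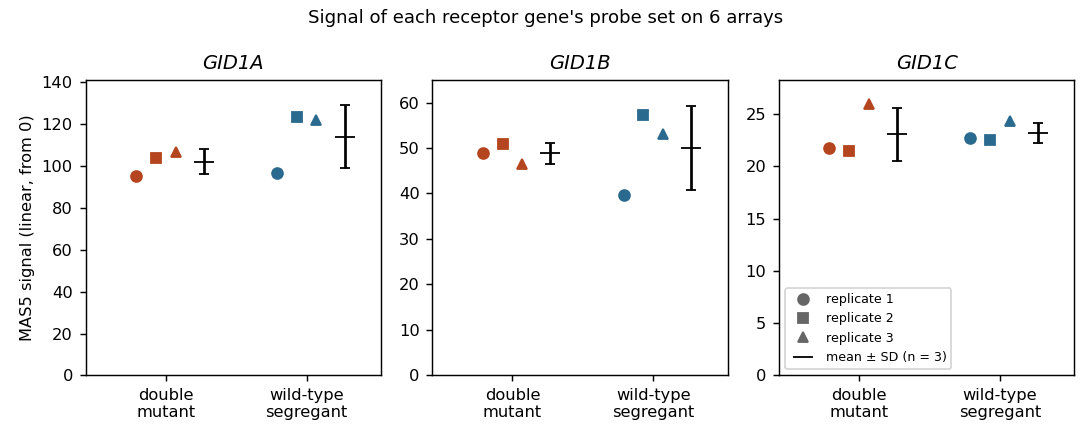
MAS5 signal (linear axis from 0, with a scale of its own in each panel) of GID1A, GID1B and GID1C on the 3 double-mutant arrays (left) and the 3 wild-type arrays (right), with the mean ± SD of each group. The groups overlap in each panel, and wild-type replicate 1 lies below the other wild-type arrays for GID1A (96.6) and GID1B (39.6).

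The spread between replicates was unequal in the 2 genotypes. On the log2(signal + 10) scale used for testing, the SD of GID1A was 0.078 in the mutant and 0.18 in the wild type, and that of GID1B was 0.055 in the mutant and 0.23 in the wild type. GID1C went the other way, with an SD of 0.11 in the mutant and 0.042 in the wild type. With 3 arrays per group, these differences in spread were not tested.

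Changes were tested with limma on all 13648 probe sets that passed a filter on low signal, with p-values adjusted over all of them. A call means a Benjamini-Hochberg adjusted p under 0.05. Of the 3 receptor genes 0 were called, against 3.78% of all tested probe sets, and 0 had an unadjusted p under 0.05, against 17.3% of all tested probe sets. With ordinary t statistics from the same fit 0 were called, but these called only 0.0879% of all probe sets, so that count says little about the receptor genes. The 2 groups were free of overlap for 0 of the 3 receptor genes, against 21.9% of all tested probe sets. Among only 3 genes, a count of 0 beside any of these shares says little.

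GID1A had the largest of the 3 differences. Its log2 fold change, mutant minus wild type, was −0.14 (SE 0.13, limma adjusted p = 0.64), or 0.907-fold on the log2(signal + 10) scale, where changes at low signal come out too small. The 95% interval of the fold ran from 0.746 to 1.10. Without wild-type replicate 1 the log2 fold change was −0.25 (limma adjusted p = 0.33), and with each array centred on its median it was −0.23 (adjusted p = 0.43), so the log2 difference was over 1.5 times as large in both settings, without a call. It was smaller by a like factor without wild-type replicate 2 (−0.083) or 3 (−0.093), again without a call.

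GID1B and GID1C had differences close to 0 at the deposited scaling. The log2 fold change of GID1B was −0.016 (SE 0.16, limma adjusted p = 0.97), with a 95% interval of the fold from 0.786 to 1.24. That of GID1C was −0.0084 (SE 0.18, limma adjusted p = 0.99), with an interval from 0.767 to 1.29. The sign of neither value was stable when 1 array was left out. After median centring the log2 fold changes were further below 0, at −0.105 for GID1B and −0.0967 for GID1C. Under quantile normalization they were −0.0995 and −0.0912 in that order, again without a call. At the deposited scaling, absolute changes smaller than the gene's own were seen for 6.14% of tested probe sets in the case of GID1B, for 3.21% in that of GID1C and for 48.6% in that of GID1A.

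These intervals limit what the arrays could show. Limma's SE draws also on the spread of other tested probe sets of like signal. For GID1C it was 0.18, against 0.066 from its own arrays alone, for GID1B 0.16 against 0.14 and for GID1A 0.13 against 0.11. At its limma SE, GID1A would have needed a log2 change of 0.50, or 1.41-fold, to reach the p-value of the weakest call on the array. The same bound was 0.58 (1.50-fold) for GID1B and 0.66 (1.58-fold) for GID1C, whose mean log2 value of 5.04 in the mutant and 5.05 in the wild type lay just above the filter floor of 5.02. An estimate smaller than its bound would not have been called at that SE. The bounds apply to estimates from 3 arrays per genotype and set no sharp limit on a true change.

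**Figure D2:**
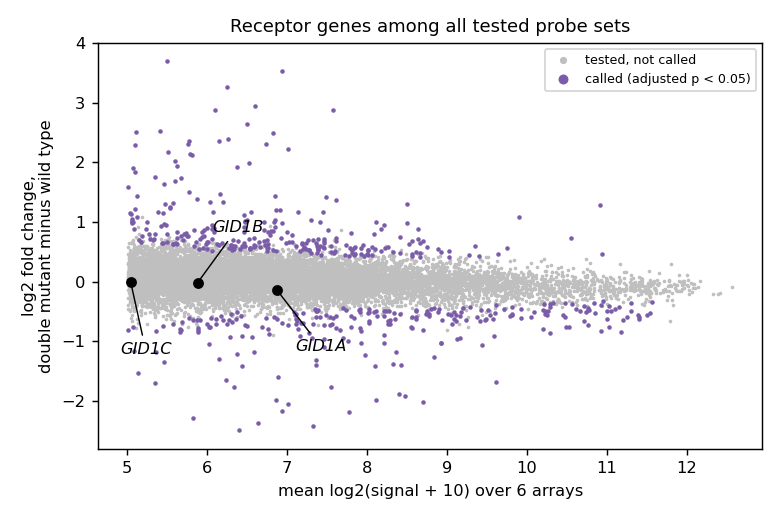
Log2 fold change, double mutant minus wild-type segregant, against the mean log2(signal + 10) over 6 arrays for the 13648 tested probe sets, with the 516 called ones in purple. GID1A (−0.14), GID1B (−0.016) and GID1C (−0.0084) lie within the cloud of probe sets that were not called, GID1C near the filter floor at the left edge.

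Whether the paralogs changed unequally was asked within arrays, where the brightness of a probe set cancels between genotypes. The log2 difference of GID1A minus GID1B was 0.83, 0.90 and 1.05 in the double mutant, against 1.10, 0.99 and 1.06 in the wild type. Mutant replicate 3 lay within the wild-type range and the other mutant arrays lay below it. The change of this difference, mutant minus wild type, was −0.12 (exact two-sided permutation p = 0.2, 0.45 after adjustment over the 3 pairs), with an exact 90% interval from −0.27 to 0.057.

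The log2 difference of GID1A minus GID1C was 1.73, 1.86 and 1.70 in the mutant, against 1.70, 2.04 and 1.94 in the wild type. The groups overlapped, and the change was −0.13 (exact permutation p = 0.3, adjusted 0.45), with a 90% interval from −0.34 to 0.15. For GID1B minus GID1C the difference was 0.89, 0.95 and 0.65 in the mutant, against 0.60, 1.05 and 0.88 in the wild type. Its change was −0.0081 (exact permutation p = 1, adjusted 1), with a 90% interval from −0.39 to 0.35. An exact test of 3 arrays against 3 cannot go below 0.1, so no pair could have passed 0.05, and the intervals do not show that the paralogs responded alike.

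**Figure D3:**
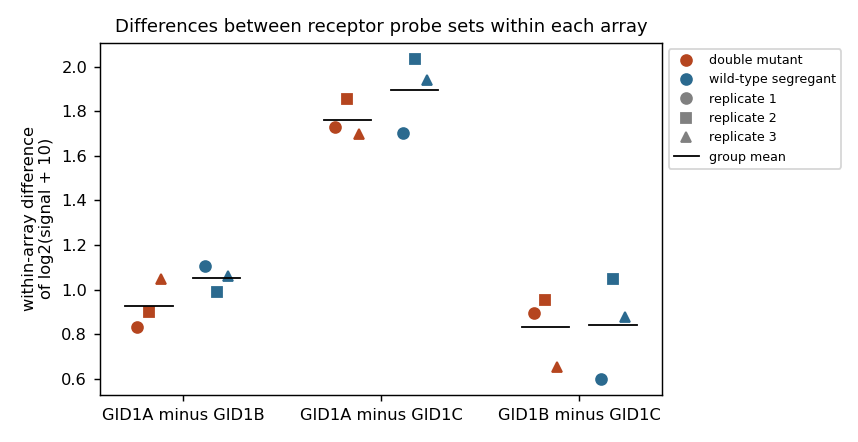
Within-array differences of log2(signal + 10) between the receptor probe sets, double mutant left of wild-type segregant for each pair, with 1 symbol per array and the group mean as a line. The groups overlap for each of the 3 pairs, and GID1A minus GID1B is lower in mutant replicates 1 and 2 (0.83 and 0.90) than in the wild-type arrays.

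Over the 6 arrays the log2 values of GID1A and GID1B had a Pearson r of 0.76, those of GID1A and GID1C an r of 0.34 and those of GID1B and GID1C an r of −0.11. The points share arrays and their scaling, and wild-type replicate 1 was low for both GID1A and GID1B. These values describe the 6 arrays and carry no test.

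Among the 7328 other tested probe sets that name 1 gene, those with the pattern most like GID1A over the 6 arrays were AT3G54400 (r = 0.99), AT1G23205 (r = 0.98) and AT5G55960 (r = 0.98). Those most like GID1B were AT2G01610 (r = 0.99), AT1G48450 (r = 0.98) and AT1G05140 (r = 0.97). Those most like GID1C were AT1G12990 (r = 0.98), AT5G14500 (r = 0.97) and GPT (AT2G41490, r = 0.96). An r over 0.9 was reached by 0.832% of these probe sets for GID1A, 1.09% for GID1B and 0.396% for GID1C. Leaving out 1 array kept between 0 and 2 of the 3 names for GID1A, and 0 or 1 for GID1B and GID1C. Scaling mattered too, as GID1B kept 1 of 3 names under quantile normalization and GID1C kept 0 of 3 both there and after median centring, while another pseudocount kept all 3 names for each receptor gene. Which genes came first therefore rested on single arrays and on the scaling.

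The other genes of the gibberellin pathway were measured only in part. A named probe set was found for 8 of the 56 listed genes, and 7 of these passed the filter. The hormone's biosynthesis and inactivation enzymes and the DELLA genes are not named in the annotation used here and were not analysed here. In limma 0 of the 7 were called higher and 0 lower, where 1.96% of all tested probe sets were higher and 1.82% lower, and 2 of the 7 had an unadjusted p under 0.05, against 17.3% of all tested probe sets. With each array centred on its median, 27.4% of the calls over the whole array were higher in the mutant, against 51.7% at the deposited scaling. The median log2 fold change of the 7 was 0.053, against 0.048 over all tested probe sets, and it was −0.036 after median centring.

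Downstream of the receptors, SLY1 (AT4G24210), the F-box gene of the ligase that removes DELLA proteins, had signals of 103 ± 5.83 in the mutant and 107 ± 5.10 in the wild type (SD, n = 3 each) and a log2 fold change of −0.045 (SE 0.12, limma adjusted p = 0.90). Its homolog SLY2 (AT5G48170), also known as SNEEZY, lay below the filter, with 19.8 to 23.5 in mutant arrays, against 11.2 to 23.1 in wild-type arrays.

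SEC (AT3G04240) and SPY (AT3G11540) encode related O-glycosyltransferases that modify DELLA proteins with different sugars and with opposite effects on their activity. SEC had signals of 70.8 to 115 in mutant arrays, against 62.7 to 68.8 in wild-type arrays, without overlap, and a log2 fold change of 0.46 (SE 0.16, limma adjusted p = 0.13). It was called without mutant replicate 3 (0.65, limma adjusted p = 0.037), and adjusted p-values over its other alternatives ran up to 0.40. SPY had signals of 80.4 to 90.9 in mutant arrays, against 91.8 to 110 in wild-type arrays, also without overlap, and a log2 fold change of −0.20 (SE 0.13, limma adjusted p = 0.47). That value was −0.12 without wild-type replicate 3 and −0.29 after median centring (limma adjusted p = 0.29). Neither gene passed over all probe sets. Groups were without overlap for 2 of the 7 gibberellin genes, against 21.9% of all tested probe sets.

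SPT (AT4G36930), a basic helix-loop-helix factor that restrains germination, and XERICO (AT2G04240), a RING-finger gene under DELLA control that favours abscisic acid accumulation, overlapped between the genotypes. SPT had signals of 153 ± 15.1 in the mutant and 135 ± 20.6 in the wild type (log2 fold change 0.18, SE 0.14, limma adjusted p = 0.55). XERICO had 87.2 ± 13.9 in the mutant and 109 ± 26.4 in the wild type (−0.29, SE 0.16, limma adjusted p = 0.40; SD and n = 3 for each mean). Both values were smaller without wild-type replicate 3, at 0.055 for SPT and −0.11 for XERICO. Without mutant replicate 3 they were 0.12 and −0.16 in that order, and after median centring 0.091 and −0.37. Both were larger in size without mutant replicate 2 (0.25 and −0.37) or wild-type replicate 2 (0.24 and −0.39), again without a call.

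Of the genes induced by gibberellin, EXPA8 (AT2G40610), an expansin gene of cell wall loosening, had signals of 52.1 to 65.8 in mutant arrays, against 31.5 to 52.2 in wild-type arrays. The ranges met at 1 wild-type array. Its log2 fold change was 0.47 (SE 0.17, limma adjusted p = 0.16), and it was called without wild-type replicate 1 (0.64, limma adjusted p = 0.037), with adjusted p-values over its other alternatives up to 0.43. CP1 (AT4G36880), a cysteine protease gene, had signals of 2003 to 2349 in mutant arrays, against 1820 to 2527 in wild-type arrays, and a log2 fold change of 0.053 (SE 0.12, limma adjusted p = 0.87) that was −0.036 after median centring.

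**Figure D4:**
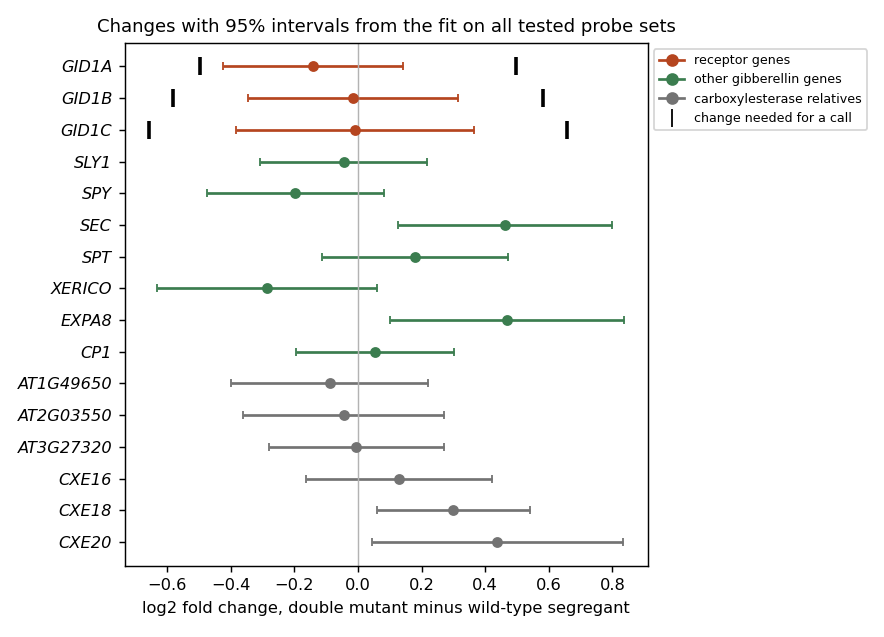
Log2 fold change, double mutant minus wild-type segregant, with limma's 95% interval for the 3 receptor genes, the 7 other gibberellin genes and the 6 carboxylesterase relatives that passed the filter. Black ticks mark the change each receptor gene would have needed for a call (0.50, 0.58 and 0.66), which lies outside each receptor gene's interval; SEC, EXPA8, CXE18 and CXE20 have intervals above 0 without a call over all probe sets.

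The receptors' nearest relatives in sequence are the plant carboxylesterases, hydrolases that keep the catalytic site. A named probe set was found for 12 of the 17 listed, and 6 of these passed the filter. In limma 0 of the 6 were called higher and 0 lower (1.96% and 1.82% over all tested probe sets), and for 2 the unadjusted p was under 0.05 (17.3% over all). Their median log2 fold change was 0.062, against 0.048 over all tested probe sets, and it was −0.027 after median centring. CXE18 (AT5G23530) had signals of 202 to 216 in mutant arrays, against 164 to 170 in wild-type arrays, without overlap (log2 fold change 0.30, SE 0.11, limma adjusted p = 0.17). After median centring its log2 fold change was 0.21 (limma adjusted p = 0.40). CXE20 (AT5G62180) had 32.0 to 43.5 in mutant arrays, against 19.0 to 31.1 in wild-type arrays, also without overlap (0.44, SE 0.19, limma adjusted p = 0.24), and its log2 fold change was 0.28 without wild-type replicate 2. A lack of overlap was thus seen for 2 of the 6 relatives, against 21.9% of all tested probe sets.

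The groups of the other 4 relatives overlapped. CXE16 (AT5G14310) had a log2 fold change of 0.13, AT1G49650 of −0.089, AT2G03550 of −0.045 and AT3G27320 of −0.0055, with limma adjusted p-values of 0.69, 0.81, 0.92 and 0.99. The 6 relatives below the filter, AT1G19190, AT1G47480, AT1G68620, AT2G45600, AT2G45610 and AT5G06570, had signals from 0.797 to 35.0 in the mutant, against from 1.13 to 26.2 in the wild type.

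Over the whole array 516 probe sets were called, 274 without mutant replicate 2, 284 without wild-type replicate 3, 321 without mutant replicate 3 and 343 without mutant replicate 1. The count was 346 without wild-type replicate 2 and rose to 702 without wild-type replicate 1. The arrays' median log2 values were 5.57 to 5.61 in mutant arrays, against 5.46 to 5.54 in wild-type arrays. The annotation used here does not name PMDH1 or PMDH2, the disrupted genes, and the genotypes were therefore not checked on their transcripts. Markers bore on the tissue label as follows. Of 6 measured genes of seed maturation, out of 12 listed, 5 were called higher in the mutant and 0 lower, against 1.96% and 1.82% of all tested probe sets. The marker list was chosen with earlier results of these data known, so this count is not independent of them. It includes M17, whose log2 fold change of 3.69 was the highest of all tested probe sets. The remaining gene, OLEO3, which encodes an oleosin and was picked out with its signals known, did not pass the test, with 38.9 to 49.0 in mutant arrays, against 53.7 to 58.5 in wild-type arrays (log2 fold change −0.30, limma adjusted p = 0.31). The summed signal of the 6 was 798 to 1042 in mutant arrays, against 119 to 177 in wild-type arrays. Markers of root hairs (2 of 2 measured, summed signal 535 to 642 in mutant arrays, against 541 to 684 in wild-type arrays) and of dividing cells (3 of 3 measured, 364 to 395 in mutant arrays, against 350 to 410 in wild-type arrays) had 0 calls (3.78% over all tested probe sets), and 0 of their unadjusted limma p-values were under 0.05 (17.3% over all). Groups were without overlap for 0 of the 2 root hair markers and 1 of the 3 dividing cell markers (21.9% over all tested probe sets). That 1 was HTR12, with 36.7 to 44.0 in mutant arrays, against 33.4 to 35.2 in wild-type arrays. No listed marker was at 0 on all arrays, and 0 of 3 endosperm markers have a named probe set. Whether the higher seed maturation transcripts bear on the signals of the receptor genes was not tested.

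**Figure D5:**
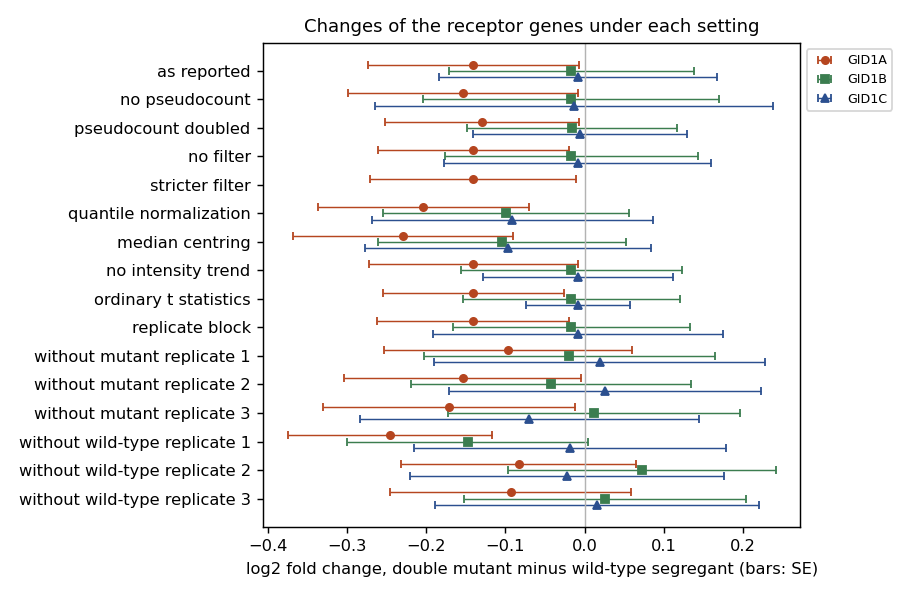
Log2 fold change of GID1A, GID1B and GID1C, double mutant minus wild-type segregant, as reported and under each alternative setting, with bars for the SE. GID1A stays below 0 in each setting (from −0.25 to −0.083), while GID1B and GID1C lie on both sides of 0; under the stricter filter only GID1A was tested.

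Under each of these settings 0 of the receptor genes tested were called and 0 had an unadjusted p under 0.05. The lowest adjusted p over the alternatives was 0.33 for GID1A, 0.66 for GID1B and 0.85 for GID1C.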

How the data were processed

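The authors deposited 1 intensity per probe set and array, linear and never negative, from MAS5 according to the submitters' processing notes; no version is stated there. In MAS5 each array is scaled by 1 factor and mismatch probes are subtracted, so dim signals are noisy. Groups and replicate numbers came from the labels. The 64 control probe sets were left out, signals were transformed as log2(signal + 10), and the 13648 of the other 22746 probe sets at or above the 40th percentile of mean log2 value were tested with limma 3.58.1 in R 4.3.3, fitting mutant minus wild type over all probe sets with an intensity trend (two-sided, Benjamini-Hochberg). The fit was tested on simulated data. Paralog differences were compared by exact permutation tests. Probe sets were named from the platform annotation and updated through gene identifiers to RefSeq's TAIR10.1 table, which matched 13436 of 13513 naming 1 gene. Coordinates and sequences were not used here, since the table of values states no build.

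The text names every measured member of the gibberellin and carboxylesterase lists and, for each receptor gene, the 3 probe sets most correlated with it; a locus is represented by its brightest probe set. Members and lists were chosen with earlier results of these data known. Alternatives were the pseudocount (none, with signals under 1 set to 1, or 20), the filter (none or the 60th percentile), quantile normalization, median centring, no intensity trend, ordinary t statistics, a replicate block, averaging the probe sets of 1 locus, and omitting each array in turn. Averaging could not move the list medians, because each measured list gene has 1 probe set. Except where the filter or the pseudocount changed, the tested probe sets were kept as reported.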

Additional observations from a re-analysis of the deposited data

How the results depend on the processing

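GID1A kept its sign and stayed without a call in each of 15 alternatives, with log2 fold changes from −0.25 to −0.083. GID1B and GID1C stayed without a call in 14 alternatives each. With 1 array left out GID1B ranged from −0.15 to 0.072, being above 0 without mutant replicate 3 (0.012), wild-type replicate 2 (0.072) or wild-type replicate 3 (0.026). GID1C then ranged from −0.070 to 0.026, being above 0 without mutant replicate 1 (0.019), mutant replicate 2 (0.026) or wild-type replicate 3 (0.016). Neither was tested under the stricter filter, which removes dimmer probe sets. The change of GID1B minus GID1C ranged from −0.13 to 0.094, above 0 without mutant replicate 3 (0.082), wild-type replicate 2 (0.094) or wild-type replicate 3 (0.010), and the other pairs kept their sign (−0.18 to −0.078 and −0.23 to −0.061).

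The gibberellin median of 0.053 was 0.13 under quantile normalization, −0.036 after median centring and from −0.022 to 0.20 with 1 array left out. The carboxylesterase median of 0.062 was 0.18 without the filter, −0.017 under quantile normalization, −0.027 after median centring and from 0.027 to 0.11 with 1 array left out. The 13 list genes gave 182 values with an unchanged sign and side of the threshold, 2 gained calls and 8 changes of sign. Signs turned for CP1 after median centring (−0.036) and with 1 array left out (−0.039 to 0.20), and with 1 array left out for AT1G49650 (−0.26 to 0.030), AT2G03550 (−0.074 to 0.011) and AT3G27320 (−0.060 to 0.042). Calls over the array fell to 228 without the filter, where more probe sets are tested, to 325 without the intensity trend and to 12 with ordinary t statistics, and ranged from 274 to 702 with 1 array left out. Where no cause is given, the cause was not tested.

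The groups share replicate numbers. Deviations from the group means of same-numbered arrays correlated at 0.037, 0.17 and 0.14, so the numbers were not taken as pairs, although each array correlated best with its own number. With a replicate block, 686 probe sets were called, and GID1A (−0.14, adjusted p = 0.57), GID1B (−0.016, adjusted p = 0.97) and GID1C (−0.0084, adjusted p = 0.99) remained without a call in limma.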
